A study of Mus musculus with 6 samples.

Results

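The genes described here carry iron into cells, store it, reduce it and regulate these steps. They are Cybrd1, Steap2 and Steap3 (ferric reduction), Tfrc and Slc11a2 (uptake), Fth1 and Ftl1 (storage), Slc40a1 (export), and Aco1 and Ireb2 (regulation). They were chosen by name, with their levels in the same libraries already known, and all 10 were found among the 43346 genes of the count table. Their differences between treatments are therefore given as a description, without p-values.

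Fetal mouse cortex of gestational day 15.5 was grown as primary cell culture and its RNA was sequenced, to ask how 10HDA (trans-10-hydroxy-2-decenoic acid, a fatty acid of royal jelly) alters gene expression in these cells. The vehicle group received DMSO and the 10HDA group received 1 mM 10HDA, with 3 libraries in each. Cultures 1, 3 and 4 each gave 1 library of each treatment. The labels give all 6 libraries as Cyp19-EGFP and SRY+, whereas C57BL/6 embryos are named in the methods of the 10HDA experiment. The cultures were grown on poly-D-lysine, the time in 10HDA is not given in the sources used here, and how many fetuses made up a culture is not given either.

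The libraries held from 9144736 to 13367194 counts, so that 3 counts, taken as the limit of detection, correspond to 0.22 to 0.33 CPM, the counts of a gene scaled for library depth. The summed level of 8 neuronal markers was between 6060 and 7780 CPM in every library. Uty, Ddx3y, Kdm5d and Eif2s3y, 4 genes of the Y chromosome, summed to 8.88 CPM in the vehicle library of culture 1 and to 9.09 CPM in its 10HDA library, whereas cultures 3 and 4 gave 95.8 to 133 CPM. This goes against the SRY+ label of culture 1. Xist, which is transcribed from the inactive X chromosome of female cells, reached 1010 CPM with vehicle and 1410 CPM with 10HDA in that culture. Cultures 3 and 4 held 394 to 826 CPM of Xist, so that an all-male label is not borne out in those cultures either. For each tested member the fold change without culture 1 is given as well.

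Iron circulates as ferric iron bound to transferrin. Cells take up this complex through the transferrin receptor, reduce the iron to the ferrous form in the endosome and pass it to the cytosol through a divalent metal transporter. What is not used is oxidised and held inside ferritin, a shell built of heavy and light chains, or leaves through ferroportin. In the cytosol, iron regulatory proteins bind a short hairpin in target mRNAs, the iron-responsive element, when iron is scarce. A hairpin before the coding sequence then blocks translation, and hairpins after it protect the mRNA from decay. Protein made from the first kind of target can change without any change in its mRNA, and these data measure mRNA alone.

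Hairpins of a fixed form were searched for in these mRNAs, and they are printed here for the members in which they were found. The search read the strand of the transcript in the GENCODE M21 transcripts of GRCm38. It required an unpaired C, 5 paired bases with G-U pairs allowed, and a 6-base loop of the form CAGTGN whose last base was not G. Capitals mark the loop, sequences run 5′ to 3′, and each window is 30 bases long.

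Fth1, 5′ UTR, chr19:9982731-9982760, plus strand: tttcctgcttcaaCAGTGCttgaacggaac
Ftl1, 5′ UTR, chr7:45459779-45459808, minus strand: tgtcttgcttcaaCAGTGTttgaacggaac
Slc40a1, 5′ UTR, chr1:45925465-45925494, minus strand: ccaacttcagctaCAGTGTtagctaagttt
Tfrc, 3′ UTR, chr16:32631218-32631247, plus strand: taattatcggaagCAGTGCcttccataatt
Tfrc, 3′ UTR, chr16:32631597-32631626, plus strand: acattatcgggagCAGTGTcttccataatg
Tfrc, 3′ UTR, chr16:32631662-32631691, plus strand: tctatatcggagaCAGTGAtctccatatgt
Tfrc, 3′ UTR, chr16:32631709-32631738, plus strand: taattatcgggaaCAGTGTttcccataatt

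A match was found in 4 of the 10 members, and in 222 of 21901 protein-coding genes (1.01%). The hairpins of the storage and export genes Fth1, Ftl1 and Slc40a1 lie near the start of the mRNA, beginning at bases 86, 77 and 89 of the transcript. Those of the receptor Tfrc lie after its coding sequence, beginning at bases 3314, 3693, 3758 and 3805. No window of this form was found in Cybrd1, Slc11a2, Ireb2, Aco1, Steap2 or Steap3, which says only that these letters are not there. A hairpin with a bulge or mismatch in its stem would have been missed, so control of these mRNAs by this route was not tested.

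The members spanned a wide range of abundance. Compared per kilobase of gene model, as CPM per kilobase in the vehicle libraries (mean ± SD, n = 3), ferritin stood highest, with Fth1 at 525 ± 71.8 and Ftl1 at 275 ± 33.6. Ireb2 at 22.6 ± 4.25, Aco1 at 21.1 ± 0.995 and Tfrc at 18.2 ± 1.60 followed, and each overlapped its neighbour in this order. Slc11a2 came next at 9.26 ± 0.699, then Cybrd1 at 3.35 ± 0.778 and Steap2 at 0.742 ± 0.137. Steap3 at 0.0902 ± 0.0239 and Slc40a1 at 0.0393 ± 0.0114 were close to the limit of detection. Apart from Ireb2, Aco1 and Tfrc, neighbours in the order did not overlap across the 3 vehicle libraries.

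**Figure D1:**
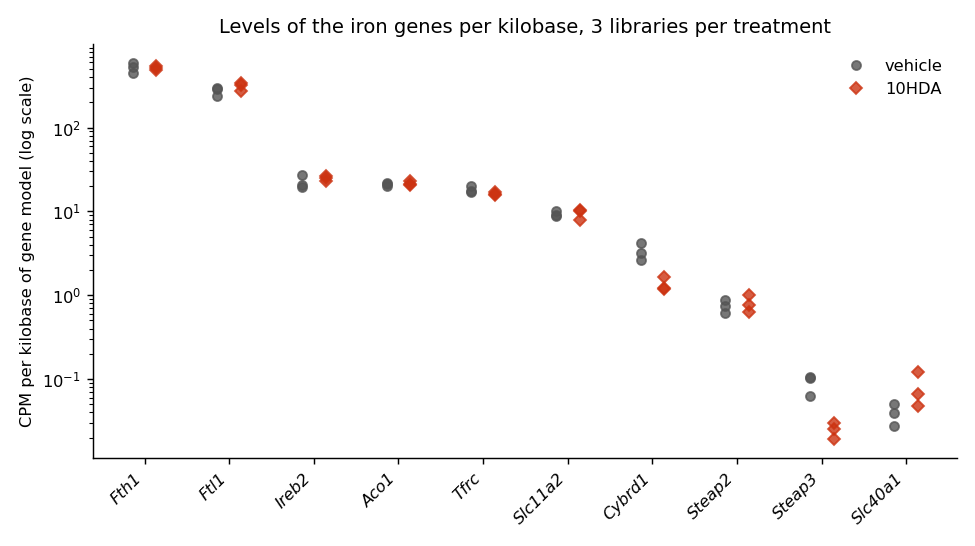
Levels of the 10 iron genes as CPM per kilobase of gene model, on a log axis, with circles for the 3 vehicle libraries and diamonds for the 3 10HDA libraries. The genes are ordered by their vehicle mean, from Fth1 at 525 to Slc40a1 at 0.0393, and Cybrd1 and Steap3 are the genes whose symbols for the treatments do not overlap.

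Of the 7 members abundant enough to be compared, Cybrd1 was lower with 10HDA in every culture, and the treatments overlapped in the other 6. Cybrd1 encodes duodenal cytochrome b, a membrane reductase that uses ascorbate to turn ferric into ferrous iron. The tested genes were those that reached 10 CPM in 3 or more libraries, which Cybrd1 did only through its vehicle libraries. Cybrd1 was the 1 member past the threshold, which describes values that were known when the members were chosen. The threshold was an adjusted p under 0.1 in edgeR's quasi-likelihood test over all 10520 genes that passed the same filter. Over all these genes 0.627% were past the threshold in either direction, 0.428% lower and 0.200% higher with 10HDA. Of these calls 31.8% were higher with 10HDA, and 46.7% when counts were scaled by library size alone. Among the 7 tested members, 4 had a fitted log2 fold change above 0 and 3 below, with a median of 0.04, against a median of -0.01 over all genes tested. Fth1 changed sign with upper quartile scaling and with library size alone, which gave 5 members above 0 and 2 below.

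**Figure D2:**
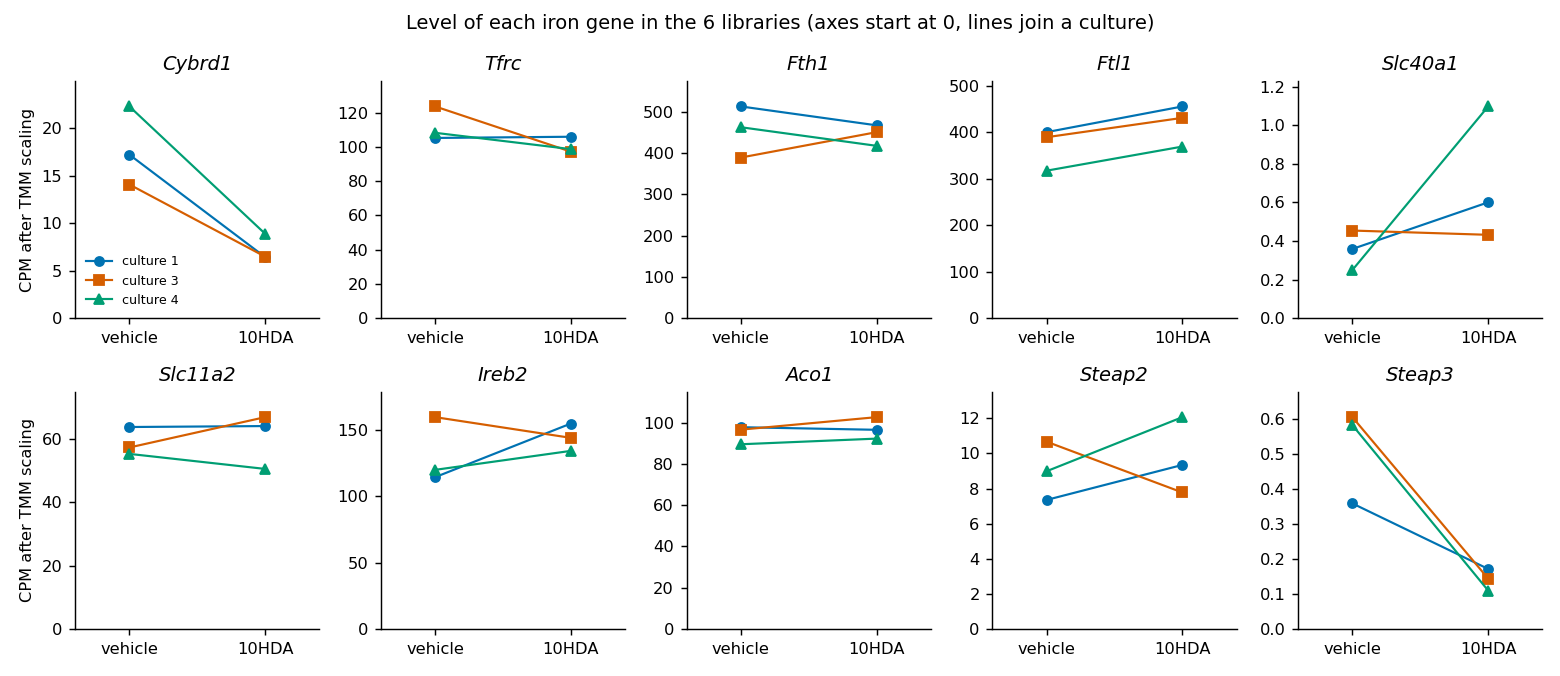
CPM after TMM scaling of each of the 10 iron genes in the 6 libraries, with a line joining the vehicle and the 10HDA library of a culture and each axis starting at 0. In Cybrd1 the vehicle libraries lie between 14.1 and 22.3 CPM and the 10HDA libraries between 6.43 and 8.89 CPM. In the other 6 tested genes the treatments overlap.

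Cybrd1 (ENSMUSG00000027015.4, GRCm38 chr2:71117923-71142926, plus strand) stood at 17.2, 14.1 and 22.3 CPM in the vehicle libraries of cultures 1, 3 and 4, and at 6.43, 6.48 and 8.89 CPM with 10HDA. Every 10HDA library was below every vehicle library, which held for no other tested member and for 13.5% of all tested genes in one direction or the other. These levels rest on 186 to 268 counts per vehicle library and 75 to 90 counts per 10HDA library. The mean was 17.9 ± 4.15 CPM with vehicle and 7.27 ± 1.41 CPM with 10HDA (SD, n = 3), and the fitted log2 fold change was -1.31 (SE 0.20), or 2.47-fold lower. Within cultures 1, 3 and 4 the log2 ratio was -1.40, -1.10 and -1.31, a narrow spread beside its size.

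With a filter of 1 CPM, which Cybrd1 passed in all 6 libraries, the log2 fold change was -1.29 (SE 0.20) and Cybrd1 was again past the threshold, as were 0.509% of the 15311 genes then tested. With culture as a block it was -1.28 (SE 0.15), again past the threshold, with 8.98% of all genes called. Without culture 1 it was -1.24 (SE 0.26) and no longer past the threshold, as after leaving out culture 3, vehicle library 3 or 4, or 10HDA library 1 or 3. With the block and culture 1 left out it was -1.20 (SE 0.18) and past the threshold, with 711 of 10520 genes called. It was below 0 in all 19 alternatives to the fit reported here, between -1.46 and -1.10. All these fits reuse values that were known when Cybrd1 was chosen. Their calls describe Cybrd1 and give no independent test of it.

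Several cell type markers were lower with 10HDA beside Cybrd1. In bulk RNA, fewer cells of a type and less RNA per cell cannot be told apart. Of 12 astrocyte markers, 11 were tested, 9 had a log2 fold change below 0 and 5 were past the threshold (Gfap, Aldh1l1, Aldoc, Clu and Slco1c1). Over all tested genes 52.1% were below 0, and 0.428% were past the threshold and lower. Gfap, the intermediate filament of astrocytes, changed by -1.28 on the log2 scale (SE 0.21), and Aldh1l1, a folate enzyme of these cells, by -1.02 (SE 0.14). Without culture 1 these values were -1.05 and -0.95 and neither was past the threshold. Sox9 and Fgfr3 were above 0, at 0.06 and 0.18. The 12 astrocyte markers summed to 1320 to 1620 CPM with vehicle and 1020 to 1240 CPM with 10HDA. The largest parts of the sum were Slc1a3 and Slc1a2, which changed by -0.23 and -0.20 on the log2 scale. The log2 ratio of the sum within cultures 1, 3 and 4 was -0.38, -0.36 and -0.38.

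The 7 markers of endothelial cells and pericytes summed to 17.4 to 19.0 CPM with vehicle and 8.12 to 11.0 CPM with 10HDA. Most of this was Pdgfrb, a growth factor receptor of pericytes and the only one tested, which changed by -1.07 on the log2 scale (SE 0.18) and was past the threshold. Without culture 1 it changed by -0.97 and was not past the threshold. Pdgfrb reached 10 CPM only in its vehicle libraries. With the filter of 1 CPM it changed by -1.06 (SE 0.18) and was again past the threshold. The endothelial marker Cldn5 was between 0 and 0.144 CPM. The pericyte markers Rgs5 and Vtn were between 0 and 0.878 CPM and between 0 and 0.179 CPM, and in both the treatments overlapped. Pecam1 and Kdr, at 1.25 CPM or less, were lower in every 10HDA library than in every vehicle library. The 5 markers of meningeal fibroblasts, none of which reached the filter, summed to 9.90 to 12.2 CPM with vehicle and 6.34 to 6.69 CPM with 10HDA. Most of this was Dcn, at 8.74 to 9.15 CPM with vehicle and 3.95 to 4.83 CPM with 10HDA. Col1a1, Col1a2, Lum and Col3a1 were at 1.70 CPM or less, and in each of them the treatments overlapped.

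The oligodendrocyte lineage was mixed, with 3 of 7 tested markers above 0 and 4 below (4 above and 3 below when scaled by library size alone) and a median log2 fold change of -0.06. Cspg4, a proteoglycan of progenitors, was past the threshold at -0.92 (SE 0.16). Sox10, a transcription factor of the lineage, had -1.44 (SE 0.37), and Pdgfra, a growth factor receptor of progenitors, had -1.21 (SE 0.28), each with groups that did not overlap. Of all tested genes, 13.5% had groups that did not overlap in one direction or the other. Sox10 reached 10 CPM only in its vehicle libraries, so it passed the filter through the group where it was higher. With the filter of 1 CPM it changed by -1.425 (SE 0.36) and was not past the threshold. Neither Sox10 nor Pdgfra was past the threshold, but with culture as a block both were. Of the 7, 3 were then called lower, where the block called 8.98% of all genes. Olig2, another transcription factor of the lineage, had 0.24 (SE 0.10), with every 10HDA library above every vehicle library, and was past the threshold in neither fit. The 8 markers summed to 336 to 421 CPM with vehicle and 257 to 364 CPM with 10HDA.

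None of the 8 neuronal markers was past the threshold, although all 8 had a log2 fold change below 0, and their sum was 7250 to 7780 CPM with vehicle and 6060 to 6960 CPM with 10HDA. In 5 of the 8 every 10HDA library lay below every vehicle library, where 13.5% of all tested genes had groups that did not overlap. With culture as a block 3 of the 8, Rbfox3, Syt1 and Snap25, were past the threshold and lower, where 8.98% of all genes were called. Markers of microglia summed to 0.792 to 1.21 CPM over all libraries, with Tmem119 at 0 in every one. Those of choroid plexus were between 3.94 and 13.5 CPM and those of the red cell lineage between 3.07 and 4.25 CPM, and the treatments overlapped in each of these 3 lists. The part of any of these cell types in the lower level of Cybrd1 was not tested.

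**Figure D3:**
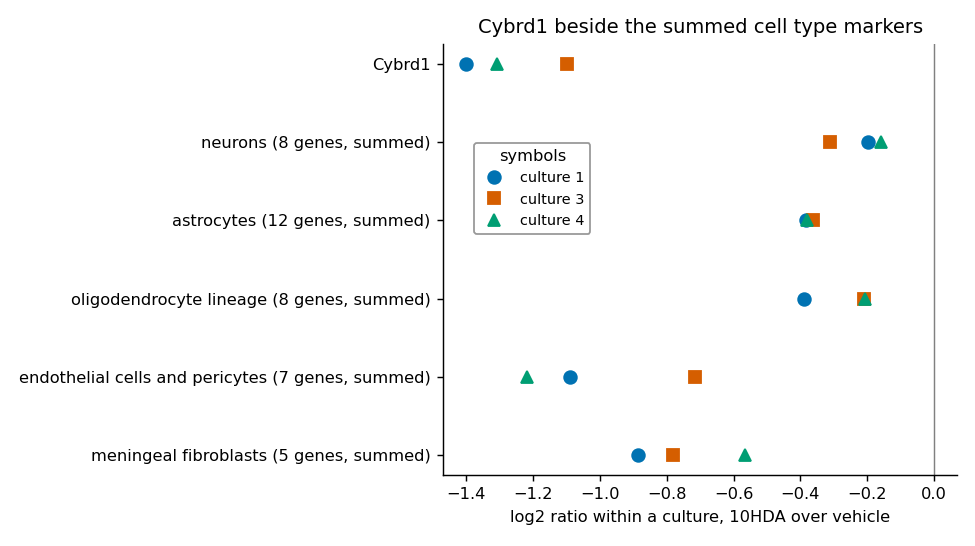
Log2 ratio of 10HDA over vehicle within each of the 3 cultures, for Cybrd1 and for the summed CPM of 5 lists of cell type markers, with a symbol for each culture. All ratios drawn are below 0, and Cybrd1 lies between -1.40 and -1.10 while the astrocyte sum lies between -0.38 and -0.36. The lists for microglia, choroid plexus and red cell lineage are not drawn, and each had ratios on both sides of 0. Each sum mostly reflects its most abundant markers. Pdgfrb makes up most of the endothelial and pericyte sum and Dcn most of the fibroblast sum. Slc1a3 and Slc1a2 are the largest parts of the astrocyte sum.

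The tested genes whose log2 CPM followed that of Cybrd1 most closely over the 6 libraries were Cdh13, a cadherin anchored by a lipid (r = 0.9958), Sdc3, a heparan sulfate proteoglycan (r = 0.9947), and Dpp6, an auxiliary subunit of potassium channels (r = 0.9935). These coefficients are Pearson's r, picked as the highest of all tested genes, and they include the difference between treatments, so they are a description only. Cdh13 was at 371 to 456 CPM with vehicle and 271 to 319.8 CPM with 10HDA. Its log2 fold change of -0.50 (SE 0.11) was smaller in size than that of Cybrd1.

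The other ferric reductases were scarcer. Steap2, a metalloreductase of endosomes and the cell surface, was at 7.35, 10.7 and 8.99 CPM with vehicle and 9.35, 7.78 and 12.1 CPM with 10HDA. The treatments overlapped, and Steap2 was not tested because 10 CPM was reached in too few libraries. With the filter of 1 CPM its log2 fold change was 0.11 (SE 0.20) and not past the threshold.

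Steap3, which reduces iron in endosomes loaded by the transferrin receptor, was near the limit of detection. It had 4, 8 and 7 counts in the vehicle libraries of cultures 1, 3 and 4 and 2, 2 and 1 counts with 10HDA. The groups did not overlap, but every 10HDA library was below 3 counts. Summed over libraries and scaled for depth, 19 counts with vehicle and 5 with 10HDA gave a ratio of 0.276, with a 95% exact interval of 0.0806 to 0.765 that covers counting error only.

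Among the uptake genes, Tfrc, the receptor for transferrin, was at 105, 124 and 108 CPM with vehicle and at 106, 97.3 and 98.8 CPM with 10HDA. The 10HDA library of culture 1 lay above 1 of the vehicle libraries, so the groups overlapped. The log2 fold change was -0.16 (SE 0.10), and the log2 ratios within cultures 1, 3 and 4 were 0.0099, -0.35 and -0.13. Tfrc was not past the threshold. Its log2 fold change was -0.22 (SE 0.13) without culture 1, but -0.06 (SE 0.12) without culture 3 and -0.06 (SE 0.10) without vehicle library 3.

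Slc11a2 encodes the divalent metal transporter that carries ferrous iron across membranes. It was at 63.8, 57.4 and 55.3 CPM with vehicle and 64.1, 67.0 and 50.6 CPM with 10HDA, and the lowest and the highest library both belonged to the 10HDA group. Its log2 fold change was 0.05 (SE 0.12), and 0.09 (SE 0.17) without culture 1. The exons of Slc11a2 overlap those of Gm5475 on the opposite strand by 402 bases, and the sources used here do not say whether reads were counted by strand.

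The ferritin chains were the most abundant of these mRNAs. Fth1, the heavy chain that oxidises iron for storage, was at 512, 389 and 462 CPM with vehicle and at 467, 450.1 and 417 CPM with 10HDA. All 3 of the 10HDA libraries lay within the range of the vehicle libraries, and the log2 fold change was -0.03 (SE 0.12). Without culture 1 it was 0.05 (SE 0.14), and its sign varied among the alternatives.

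Ftl1, the light chain that helps the iron core form, was at 399.8, 389 and 317 CPM with vehicle and at 455, 430.5 and 369 CPM with 10HDA. It was higher with 10HDA in 3 of 3 cultures, with log2 ratios of 0.19, 0.15 and 0.22, while the groups overlapped because culture 4 was lowest under both treatments. The log2 fold change was 0.18 (SE 0.12), and Ftl1 was not past the threshold. With culture as a block the log2 fold change was 0.19 (SE 0.09), and without culture 1 it was 0.20 (SE 0.15), in neither case past the threshold.

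The CPM of Ftl1 relative to Fth1 was 0.780, 1.00 and 0.686 with vehicle and 0.975, 0.956 and 0.884 with 10HDA, and these ranges overlapped. Ferritin values are uncertain because reads can be shared with processed copies. Ftl2-ps held 792 to 1791 counts per library, against 3361 to 5979 for Ftl1. This copy was higher with 10HDA in 3 of 3 cultures, with overlapping groups and a log2 fold change of 0.39 (SE 0.17), and unlike Ftl1 it was past the threshold with culture as a block, though not without it. Ftl1-ps1 held 192 to 494 counts and Fth-ps2 held 2 to 7. Ftl1 also shares exon sequence with Gm10252 on the opposite strand and with the annotated microRNA gene Gm22133 on its own strand.

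Slc40a1, ferroportin, is the exporter of ferrous iron. It was barely detected, with 4, 6 and 3 counts with vehicle and 7, 6 and 10 counts with 10HDA. The sums of 13 and 23 counts gave a depth-scaled ratio of 1.86, with a 95% exact interval of 0.902 to 3.99 for counting error only. A difference was not detectable at this depth.

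The iron regulatory proteins were both well expressed. Aco1, which is a cytosolic aconitase when it holds an iron-sulfur cluster and binds mRNA when it does not, was at 97.8, 96.6 and 89.6 CPM with vehicle and 96.6, 103 and 92.3 CPM with 10HDA, a log2 fold change of 0.04 (SE 0.09), and 0.09 (SE 0.14) without culture 1. Aco1 had the smallest standard error of the tested members in this fit. With culture as a block the standard error of Ftl1 was smaller, at 0.0912 against 0.0938 for Aco1.

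Ireb2, which is degraded when iron is plentiful, was at 114, 160 and 120 CPM with vehicle and 155, 144 and 134 CPM with 10HDA. The groups overlapped, and the log2 ratios of cultures 1, 3 and 4 were 0.44, -0.15 and 0.16. The log2 fold change of 0.14 (SE 0.13) varied with the libraries used, from 0.01 (SE 0.15) without culture 1 to 0.31 (SE 0.13) without culture 3 and 0.33 (SE 0.11) without vehicle library 3. Ireb2 was not past the threshold in any of these.

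**Figure D4:**
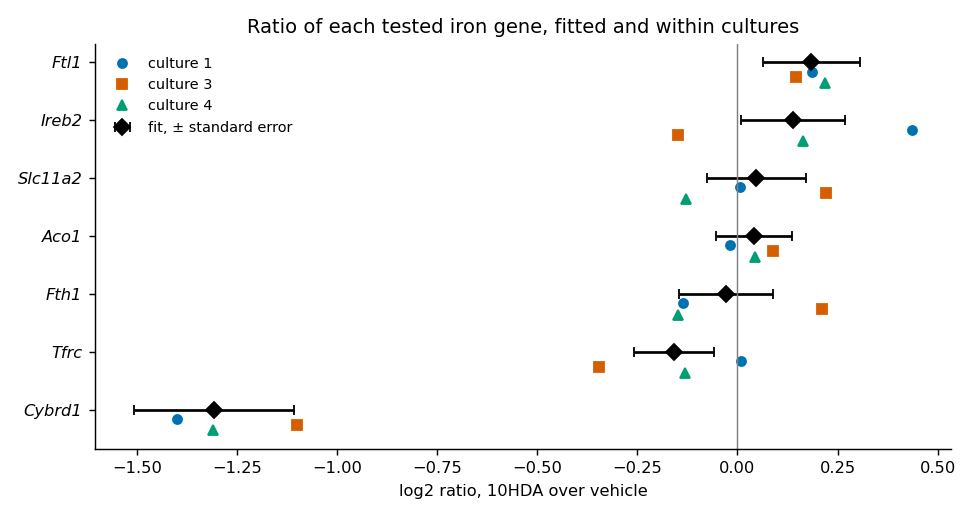
Fitted log2 fold change of the 7 tested iron genes with its standard error (black diamonds and bars) and the log2 ratio within each culture (coloured symbols), 10HDA over vehicle. Cybrd1 lies at -1.31, and the other 6 genes lie between -0.16 and 0.18.

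A list of 80 further genes of iron handling was compared in the same way, with adjusted p-values over all genes tested. This list too was chosen with earlier results of these data known, so its p-values are a description. Of the 50 that reached the filter, 1 was past the threshold and higher with 10HDA (Hmox1) and 0 were lower, against 0.200% and 0.428% of all genes. Their median log2 fold change was 0.07, with 33 genes above 0 and 17 below, where 47.9% of all tested genes were above 0. An unadjusted p under 0.05 was found for 4 of the 50, against 1059 of all 10520 tested genes (10.1%). In 2 of the 50 the 10HDA libraries all lay above the vehicle libraries and in 3 all lay below, together 5 of 50, where 13.5% of all genes tested had groups that did not overlap.

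Hmox1, heme oxygenase 1, which breaks haem down and frees its iron, was at 15.2, 11.3 and 14.7 CPM with vehicle and at 26.5, 19.9 and 24.5 CPM with 10HDA. It was higher in 3 of 3 cultures, and the groups did not overlap. The log2 fold change was 0.79 (SE 0.16, adjusted p = 0.0853 from edgeR). Without culture 1 it was 0.79 with an adjusted p of 0.396, and with culture as a block the adjusted p was 0.000181 from edgeR. With that block and culture 1 left out the adjusted p from edgeR was 0.00235. Its adjusted p lay between 0.000181 and 0.497 over the 19 alternatives. The call was also lost without culture 3 or 4, vehicle library 3 or 4, or 10HDA library 1 or 3. Over the 19 alternatives the log2 fold change lay between 0.68 and 0.90, above 0 throughout.

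Of the 19 genes of haem synthesis, breakdown and transport, 14 were tested and Hmox1 was the 1 past the threshold. Flvcr1, a haem exporter, had a log2 fold change of 0.23 (SE 0.11, adjusted p = 0.517 from edgeR) and groups that did not overlap. Alad, the second enzyme of haem synthesis, had 0.27 (SE 0.17, adjusted p = 0.592 from edgeR).

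Of 12 regulators and chaperones, 4 were tested and 0 passed the threshold. Epas1, the hypoxia-inducible factor 2 alpha that controls several iron genes in the gut, was at 13.9, 15.4 and 21.1 CPM with vehicle and 11.1, 8.71 and 12.7 CPM with 10HDA. It was lower in 3 of 3 cultures with groups that did not overlap, and its log2 fold change was -0.64 (SE 0.19, adjusted p = 0.296 from edgeR). With culture as a block the adjusted p from edgeR was 0.0071, and over the 19 alternatives it ranged up to 0.933, with a log2 fold change below 0 in each. Without culture 1 the log2 fold change was -0.76 (SE 0.24). Fbxl5, the iron sensor that marks Ireb2 for degradation, had 0.12 (SE 0.10, adjusted p = 0.690 from edgeR), and Pcbp1, a chaperone that delivers iron to ferritin, had -0.05 (SE 0.09, adjusted p = 0.850 from edgeR).

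Of 30 genes of mitochondrial iron and iron-sulfur cluster assembly, 25 were tested, 21 had a log2 fold change above 0 and 4 below, and 0 passed the threshold. The median was 0.08. Those with the smallest p were Slc25a28, a mitochondrial iron importer, with 0.32 (SE 0.14, adjusted p = 0.466 from edgeR), Hspa9, a mitochondrial chaperone, with 0.24 (SE 0.11, adjusted p = 0.497), and Abcb10, a transporter of the inner membrane, with 0.29 (SE 0.14, adjusted p = 0.524). With culture as a block 1 of the 25 was past the threshold, Ciao2a, a factor of cytosolic iron-sulfur assembly, which is named here after its values were seen (adjusted p = 0.0579 from edgeR, against 0.543 without the block and up to 0.999 among the alternatives).

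Of 9 genes of transferrin and other uptake, 4 were tested, all 4 had a log2 fold change below 0 (2 of 4 when scaled by library size alone) and 0 passed the threshold. Exoc6, a part of the exocyst that recycles transferrin receptor, had -0.26 (SE 0.12, adjusted p = 0.488 from edgeR) with groups that did not overlap. Snx3, a sorting nexin of the same route, had -0.11 (SE 0.12, adjusted p = 0.754) and Slc39a14, a transporter of zinc and iron, had -0.06 (SE 0.11, adjusted p = 0.857). Transferrin itself (Trf) was at 0 to 0.515 CPM.

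Of 10 further reductases and oxidases, 3 were tested and 0 passed the threshold. Cyb561, a relative of Cybrd1, was at 34.2, 35.0 and 26.2 CPM with vehicle and 37.8, 49.97 and 28.5 CPM with 10HDA, a log2 fold change of 0.30 (SE 0.19, adjusted p = 0.609 from edgeR). Cyb561d2 had 0.10 (SE 0.14, adjusted p = 0.810) and Cyb561d1 had -0.0039 (SE 0.17, adjusted p = 0.995). Steap4 had 0 counts in every library.

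The ferroxidase ceruloplasmin (Cp), which was named after its values were seen, lay below the filter. It was at 1.26, 1.67 and 2.16 CPM with vehicle and at 4.80, 3.53 and 4.94 CPM with 10HDA, higher in 3 of 3 cultures with groups that did not overlap. With the filter of 1 CPM, 65 of the 80 genes were tested and 2 were past the threshold, Hmox1 and Cp. The log2 fold change of Cp was then 1.38 (SE 0.26, adjusted p = 0.0626 from edgeR), a direction opposite to that of Cybrd1.

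**Figure D5:**
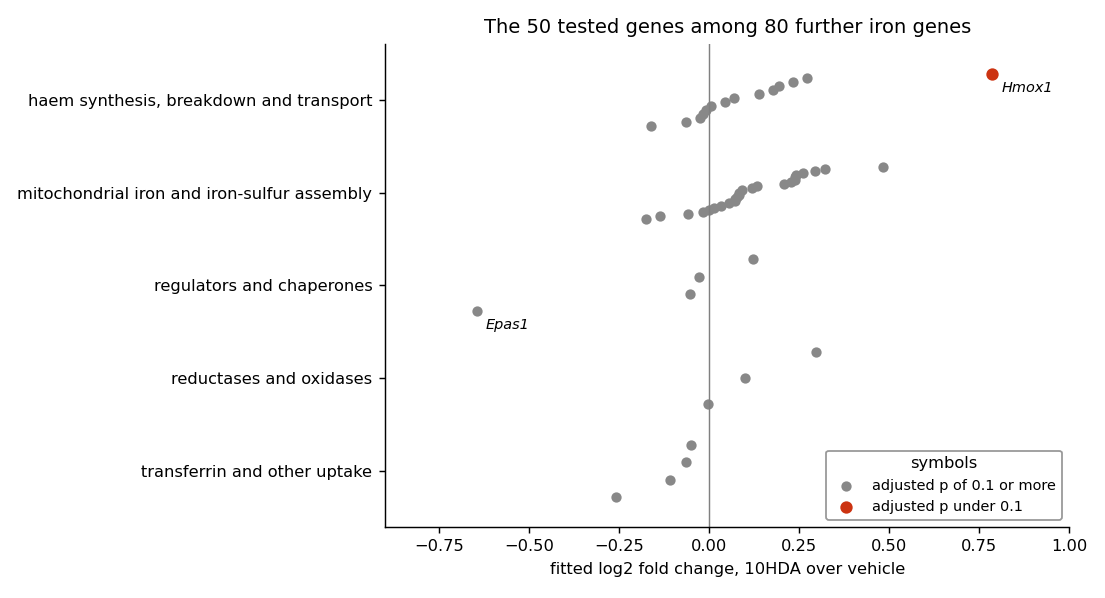
Fitted log2 fold change, 10HDA over vehicle, of the 50 tested genes among the 80 further iron genes, in 5 groups by role, with 1 point per gene and height within a group only for spacing. Hmox1 at 0.79 is the only point past the threshold, and Epas1 at -0.64 is the lowest.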

How the data were processed

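RNA from 3 vehicle and 3 10HDA libraries of cortical cultures was compared. Per the study's methods, reads were not trimmed, were placed on mm10 by Subjunc (Subread 1.4.4) and were assigned to GENCODE gene models by featureCounts. The values deposited by the authors are the resulting raw counts, with the length of each gene model in bases, which the authors' table gives and which served for levels per kilobase. Symbols were matched for 98% of identifiers, and coordinates and sequences are those of GENCODE M21 (GRCm38). No columns of further samples were present (0).

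The filter of the study's methods, 10 CPM or more in 3 or more libraries, was applied. After TMM scaling, treatments were compared by the quasi-likelihood test of edgeR 4.0.16 (R 4.3.3), with Benjamini-Hochberg adjustment at 0.1 and no culture term. The members and lists were chosen with earlier results of these data known. The genes named are the 10 members, the further iron genes past the threshold and the 3 with the smallest p in each of 5 groups, marker genes, the 3 genes most like Cybrd1 and 4 Y-linked genes. Intervals are exact at 95%. With 3 libraries against 3 an exact permutation test cannot give a p below 0.1, so none was used.

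The labels pair libraries by culture. Deviations from the treatment means correlated across genes at 0.37, 0.24 and 0.62 within cultures 1, 3 and 4, and at -0.45 to 0.18 between cultures. That the 3 cultures came from separate fetuses is not stated, so p-values measure the spread between these samples. Alternatives were other scalings, filters, tests and thresholds (DESeq2 1.42.0, limma 3.58.1), culture as a block, and each library or culture left out. The scripts were tested on simulated data.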

Additional observations from a re-analysis of the deposited data

How the results depend on the processing

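Over all genes, 66 were past the threshold as reported. The count was 636 with no filter beyond 1 count, 170 with DESeq2, 218 with edgeR's likelihood ratio test, 43 at a threshold of 0.05, 945 with culture as a block, and 711 with that block and culture 1 left out. Leaving out 1 library or culture gave 0 to 350 calls in edgeR's quasi-likelihood test. The 0 arose without 10HDA library 1 (469 genes at an unadjusted p under 0.05) and without culture 3 (725 genes). Calls numbered 2 without vehicle library 3, 7 without vehicle library 4, 3 without culture 1, 36 without culture 4, 29 without 10HDA library 3, 106 without vehicle library 1 and 350 without 10HDA library 4. With library size alone, 46.7% of 45 calls were higher with 10HDA, against 31.8% as reported.

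Of the members, 1 (Cybrd1) was past the threshold as reported and 0 to 1 when a library or culture was left out. The culture block changed no call of a member. Of the further iron genes, 1 was past the threshold as reported, 3 with no filter beyond 1 count, 2 with the filter of 1 CPM, 2 with the likelihood ratio test, 0 at a threshold of 0.05, 3 with culture as a block, 2 with that block and culture 1 left out, and 0 to 3 when a library or culture was left out. The cause of these differences was not tested. Tfrc was below 0 and Ftl1 and Ireb2 above 0 in 19 of 19 alternatives, whereas Fth1 was below 0 in 11 and above 0 in 8. The log2 fold change of Aco1 moved from 0.04 to 0.12 with library size alone. Depth limits Slc40a1 and Steap3, which had 10 counts or fewer in every library.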
